A study of Synthetic plasmid and Mus musculus with 4 samples.

Results

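The brain class of this reporter library was numbered B1 to B1000, and the sites described here are those with a number above 500. They were chosen by their number alone: 423 of the 3483 target sites of the library carried such a number, on 5211 of its 45670 constructs. What separates the upper from the lower numbers is not stated in the sources used here. A construct is a plasmid with 1 captured genomic fragment of C57BL/6J mouse DNA and 1 transcribed barcode, and a target site is a window of 300 bases that its fragments overlap in whole or in part. The files mark the class by a letter alone (B, R, H or L), read here from knowledge of the study as open chromatin of brain, retina, heart or liver, found as DNase hypersensitive sites.

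The library was assayed in 2 tissues of CD-1 mice. Cerebral cortex received it in vivo, packaged in an adeno-associated virus (AAV) and injected stereotactically at 4 to 6 weeks of age. Tissue was taken 4 to 5 weeks later by microdissection of the GFP-positive regions, with 1 animal for each of the 3 biological replicates. Retina received it by electroporation ex vivo on postnatal day 0 and was then cultured for 8 days, with 5 retinas pooled for each of the 3 replicates. Tissue therefore goes together with delivery route, age, culture and sequencing lane, and these cannot be told apart. RNA and DNA barcodes were counted in every replicate. The total count of an RNA library was 4000439 to 9674859 in cortex and 7025820 to 10411511 in retina. That of a DNA library was 3999412 to 10769648 in cortex and 6501061 to 12147398 in retina. Barcode counts hold no marker genes, so the labelled tissues could not be checked against them.

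A DNase hypersensitive site is a stretch of open chromatin, and many such sites far from genes are enhancers. An enhancer binds transcription factors of the cell it acts in and raises transcription from a promoter, often in a few cell types only. A barcoded reporter assay takes the fragment out of its chromosome, places it on a plasmid beside a minimal reporter and reads how much barcode RNA is made for each copy of barcode DNA. It measures what the fragment can do outside its native chromatin, averaged over all cells that took up the library. More RNA per cell and activity in more of the cells cannot be told apart in such bulk samples.

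Each construct is read only through its barcode. The barcodes below belong to the most and the least active passing construct of 4 of the most active sites, and are printed because the values of single fragments given further on were counted from them. They are tags without regulatory function, so no base is capitalised. The genomic sequences of the fragments were not used here.
B662 most active construct: acacgcgcacagtct
B662 least active construct: gtaatacatgtaatc
B793 most active construct: ccctcagttaatatc
B793 least active construct: gacgaagcagatcct
B645 most active construct: accgacctctatccc
B645 least active construct: ctacccccgcccagg
B885 most active construct: acctttggattaatt
B885 least active construct: gccccgtcaaacaag

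A construct passed when each DNA library of the tissue counted it 10 times or more, and a site was tested when it had 5 or more such constructs. In cortex 4420 member constructs passed the first limit and 241 sites passed both, of 2108 sites of all classes. In retina these numbers were 4075 constructs and 228 of 2031 sites, and 225 members were tested in both tissues. Activity is given as the share of library RNA over the share of library DNA in the same replicate, called the RNA/DNA share ratio here. A value of 1 means that a site took as much of the RNA as of the DNA. This ratio needs no scaling between libraries.

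In cortex these sites took more of the RNA than any other class. Their constructs held 24.4% ± 1.47 of the RNA and 11.4% ± 0.0928 of the DNA (SD, n = 3). The share ratio was 2.217, 1.987 and 2.200 in replicates 1, 2 and 3, with a mean of 2.13 ± 0.128 (SD, n = 3). Sites B1 to B500 held a similar part of the DNA, and their ratio was 1.19 ± 0.0384 (SD, n = 3). The H and L classes together stood at 0.795 ± 0.0251 and the R class at 0.818 ± 0.0257 (SD, n = 3). The upper-numbered sites exceeded the lower-numbered ones in 3 of 3 replicates, by 0.946 ± 0.108 (SD, n = 3), and the 3 values of one set did not overlap those of the other. An exact two-sided sign permutation test over the 3 replicates gave p = 0.25, the smallest value that 3 replicates allow.

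**Figure D1:**
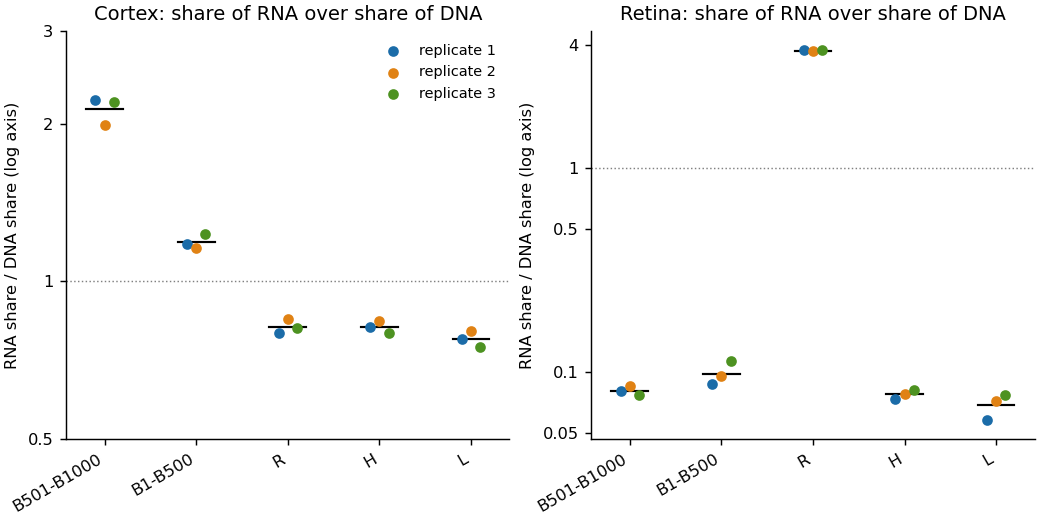
RNA/DNA share ratio (log axis) of the constructs of each class in cortex (left) and retina (right); points are the 3 biological replicates, black lines their mean, and the dotted line marks a ratio of 1. In cortex sites B501 to B1000 lie at 1.987 to 2.217, above every other class, and in retina they lie near 0.0807 with the B1 to B500, H and L classes while the R class lies at 3.77.

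The difference between the upper and lower numbers was seen among the most active sites and not at the median. The median site of the upper numbers had a fitted log2 RNA/DNA of 0.05 in cortex, against 0.04 for the lower numbers and -0.09 over all 2108 sites. The fit was edgeR's quasi-likelihood test of RNA against DNA over all sites of the tissue, with the replicate as a block, and its log2 zero corresponded to a share ratio of 0.769, 0.788 and 0.759 in replicates 1 to 3. With Benjamini-Hochberg adjustment over all sites, 37 of the 241 members (15.4%) were called higher in RNA, where 2.99% of all sites were. Among the lower numbers 18 of 220 (8.18%) were called. The exact 95% binomial intervals of these shares, 11.05% to 20.5% and 4.92% to 12.6%, overlapped in part. The other classes gave 1 of 508 H sites, none of the L sites and 7 of 494 R sites by the same rule. No member was called lower, as over all sites (0%), while at an unadjusted p under 0.05 edgeR had 54 members higher and 4 lower. DESeq2 called 47 members higher and 2 lower.

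A simpler count gave the same order of the upper and lower numbers. The share ratio was above 1 in all 3 replicates for 49 of 241 members (20.3%), against 27 of 220 lower-numbered sites (12.3%) and 6.45% of all sites.

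The RNA of the group came from few sites. The 37 called members held 67.9% ± 2.225 of all member RNA (SD, n = 3). They made up 16.7% ± 1.60 of the RNA of the whole library on 1.98% ± 0.0302 of its DNA, a share ratio of 8.45 ± 0.880 (SD, n = 3). The 5 most active held 25.9% ± 2.90 of the member RNA and the 15 most active 53.8% ± 2.20 (SD, n = 3). The other 204 members, which are by construction the less active ones, had a pooled share ratio of 0.847 ± 0.00909, and the uncalled lower-numbered sites had 0.851 ± 0.0184 (SD, n = 3). Uncalled H, L and R sites lay at 0.819, 0.785 and 0.779, and all 3 replicates of the uncalled members were above all 3 of the L and R sites.

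Among the called members the fitted log2 ran from 1.06 to 5.98 with a median of 2.31. The 15 highest are described first, with mm9 coordinates of their windows as recovered from the overlap lengths of the construct table. All 15 had a log2 above 0 in all 3 replicates, standard errors of 0.15 to 0.28 and adjusted p-values of at most 2.57e-07 in edgeR's test. They were called in all 15 other ways of processing that tested them.

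B662 (chr15:91444486-91444785) was the most active site. Its share ratio was 70.9, 36.7 and 45.0 in replicates 1 to 3, and the log2 RNA/DNA was 5.98 (SE 0.22). That rested on 7 constructs, which together held 5223 DNA counts and 201564 RNA counts. The replicates spread almost 2-fold, and the lowest of them was above every replicate of B645 and the sites ranked after it.

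B880 (chr17:73621306-73621605) followed with 39.3, 27.5 and 34.0 over 22 constructs (log2 5.43, SE 0.17). A single construct gave 54.0% of its RNA. B793 (chr9:107863646-107863945) had 25.7, 17.6 and 20.5 over 25 constructs (log2 4.77, SE 0.17). No construct of B793 gave more than 22.1% of its RNA. These sites were placed in the same order by all 3 replicates.

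B645 (chr5:112750026-112750325) had share ratios of 21.7, 15.6 and 15.7 over 18 constructs (log2 4.50, SE 0.19). B922 (chr8:4256966-4257265) had 13.8, 20.2 and 16.4 over 8 constructs (log2 4.43, SE 0.21), and 1 construct gave 67.6% of its RNA. The replicates of B645 and B922 overlapped, so their order is not resolved.

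B701 (chr15:80108866-80109165) was measured on 78 constructs, the most of any called member, and its share ratio was 13.4, 12.1 and 14.2 (log2 4.09, SE 0.15). It held 504509 RNA counts, 11.8% ± 0.519 of the member RNA (SD, n = 3). B885 (chr9:108039906-108040205) had 12.7, 11.4 and 14.8 over 33 constructs (log2 4.06, SE 0.16). B620 (chr12:44928306-44928605) had 17.7, 9.89 and 10.6 over 8 constructs (log2 3.99, SE 0.28). The replicate ranges of B701, B885 and B620 overlapped each other.

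B902 (chr2:149699106-149699405) stood at 11.9, 10.4 and 11.3 over 15 constructs, with a log2 of 3.86 (SE 0.18). B845 (chr4:46074506-46074805) stood at 7.08, 10.7 and 10.8 over 14 constructs, with a log2 of 3.60 (SE 0.19). B883 (chr5:150363826-150364125) stood at 7.96, 6.44 and 8.98 over 12 constructs, with a log2 of 3.32 (SE 0.20). B902 and B883 did not overlap in their replicates, while B845 overlapped both.

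The last 4 of the 15 were close together. B813 (chr9:108030626-108030925) had share ratios of 6.92, 5.33 and 6.78 over 23 constructs, and B836 (chr10:40408146-40408445) had 4.89, 5.51 and 6.72 over 13. B737 (chr6:18589726-18590025) had 5.98, 5.44 and 5.49 over 12 constructs, and B768 (chr16:24176106-24176405) had 7.39, 3.86 and 4.94 over 20. Their log2 values were 3.03, 2.87, 2.87 and 2.75, and the replicates of all 4 overlapped. B737 had the smallest spread of them, with a mean of 5.64 ± 0.300 (SD, n = 3).

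**Figure D2:**
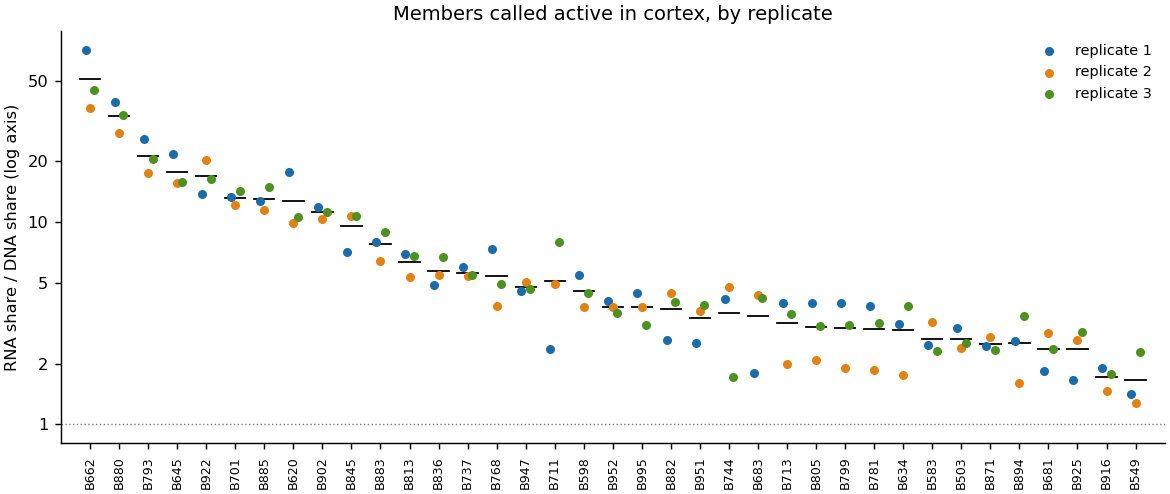
RNA/DNA share ratio in cortex (log axis) of the 37 members called higher in RNA, sorted by fitted log2; points are the 3 replicates and black lines their mean, and the dotted line marks a ratio of 1. All points lie above 1, from 70.9 in replicate 1 of B662 down to 1.28 in replicate 2 of B549.

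The other 22 called members had a log2 between 1.06 and 2.63. The upper end was B947, measured on 32 constructs, and the lower end was B549, at 1.42, 1.28 and 2.27 over 22 constructs (adjusted p = 0.0370 in edgeR's test). Over the whole group 25 of the 37 calls held in every alternative that tested the site, and 12 were lost at least once. Leaving out replicate 3 lost 9 of them and leaving out replicate 1 lost 4. The sites in this range are therefore less firmly placed than the 15 above.

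The best-sampled sites were mostly not active. Sites B760, B879 and B701 had the most constructs in the library, with 112, 92 and 89, and B760, B701 and B989 held the most DNA counts in cortex. B760 had share ratios of 0.982, 0.846 and 0.822 over 94 passing constructs (log2 0.19, SE 0.16), and B879 had 0.848, 0.382 and 0.628 over 70 (log2 -0.39, SE 0.25). B989 had 0.906, 0.779 and 1.06 over 75 constructs (log2 0.23, SE 0.18). Of these well-measured sites B701 alone was called. By number of passing constructs, calls made up 5 of 52 members with 5 to 7 (9.62%), 13 of 88 with 8 to 14 (14.8%), 12 of 73 with 15 to 29 (16.4%) and 7 of 28 with 30 or more (25.0%). Over all sites the shares in these bins were 2.02%, 3.12%, 2.88% and 4.59%. The exact 95% binomial intervals of the first and last bin of members, 3.20% to 21.03% and 10.7% to 44.9%, overlapped, so no trend is read from them. Along the numbering, 4 of 47 tested sites were called among B501 to B600, 6 of 46 among B601 to B700, 9 of 51 among B701 to B800, 10 of 40 among B801 to B900 and 8 of 57 among B901 to B1000.

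Called sites differed in how many of their fragments were active. Of 722 passing constructs in the called members, 325 (45.0%) had a share ratio above 1 in all 3 replicates, against 2.37% of the 3292 constructs of members not called and 3.34% of all 35891 constructs. Since the calls were made from the sums of these same constructs, this describes how the activity was spread and supports nothing further. In B662, 6 of 7 constructs were above 1 in all 3 replicates. In B793 it was 21 of 25, in B701 44 of 78 and in B768 7 of 20. The lowest shares were in sites outside the 15, named after their values were seen. They were 2 of 26 in B916, 2 of 22 in B549, 1 of 9 in B681, 2 of 17 in B925 and 1 of 8 in B583.

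Single fragments of a site differed widely. The most active construct of B662, a fragment of 532 bases at chr15:91444638-91445169, had 5917 RNA counts on 104 DNA counts and a share ratio of 90.8 ± 58.9 (SD, n = 3). The least active, chr15:91444509-91444872, had 10 RNA counts on 279 DNA counts, all of them in replicate 1. In B645 the range ran from 38259 RNA counts on 762 DNA counts at chr5:112750109-112750448 to 5 on 81 at chr5:112749756-112750296. In B885 it ran from 9084 on 163 at chr9:108039943-108040302 to none on 83 at chr9:108040070-108040527. A count of 0 on that DNA allows a share ratio of up to 0.0442, taking 3 counts as the floor. The lowest in B793, at chr9:107863214-107863797, still had 76 RNA counts on 204 DNA counts, and the highest, at chr9:107863521-107864043, had 7226 on 230. The barcodes of these 8 constructs are those printed above. Barcodes were read without molecular identifiers, so floors and intervals cover counting error only.

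Leaving out the construct with most RNA of each site lost 3 of the 37 calls, and these sites were looked up after the values were seen. In B583 a single construct gave 96.8% of the RNA, and without it the log2 fell from 1.77 to -1.66 (SE 1.46, adjusted p = 0.705 in edgeR's test). B683 went from 2.06 to 1.12 (SE 0.62, adjusted p = 0.521). B744 kept its size, at 2.08 with and 2.23 without that construct, while its SE grew from 0.42 to 0.65 (adjusted p = 0.0802). The other 34 called members were called without their construct with most RNA as well.

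In some sites, fragments that missed part of the window differed in activity by the end they lacked. Left and right are used for the lower and the higher coordinate of the window. In 22 called members there were at least 2 fragments with the whole window, 2 without its left end and 2 without its right end. Whole-window fragments were more than 2-fold above those without the right end in all 3 replicates in 6 of these 22, where 6.35% of 1087 sites of all classes were. They were more than 2-fold above those without the left end in 2 of 22, where 4.60% of all were. Counted over all fragments that miss any part, 4 of 30 called members were more than 2-fold apart in one direction in all 3 replicates, where 6.88% of all sites were. Fragment groups are small, and the fragments of a site overlap each other in sequence.

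B645 showed the widest contrast of this kind. Its 9 whole-window fragments had share ratios of 33.1, 15.8 and 18.0 and its 6 fragments without the left end 22.02, 24.8 and 21.4, while the 3 without the right end had 1.91, 1.13 and 0.383. The pooled values of the last group did not overlap those of the others. Single fragments without the left end ran from 0.831 to 66.1, whole-window ones from 1.36 to 63.9 and those without the right end from 0.0839 to 1.34. All 3 without the right end were on the minus strand. In B883 the 3 fragments without the right end had a mean of 1.21 ± 0.668, against 9.41 ± 1.70 for whole-window fragments and 7.17 ± 1.02 for those without the left end (SD, n = 3). In B836 these means were 1.09 ± 0.933, 9.12 ± 2.43 and 3.63 ± 0.938, and in B768 they were 1.18 ± 1.19, 11.1 ± 4.56 and 5.32 ± 1.63 (SD, n = 3). B995 and B781 were the other 2 of the 6. In all of these the activity was lowest when the right end was missing.

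B701 and B951 were the 2 sites in which whole-window fragments exceeded those without the left end. B701 had 24.6 ± 5.03 with the whole window and 22.4 ± 6.28 without the right end, against 9.13 ± 1.57 without the left end (SD, n = 3), on 18, 9 and 51 constructs. B793 did not meet the limit on either side, with 25.9 ± 4.82 for the whole window, 26.7 ± 8.46 without the left end and 15.2 ± 3.22 without the right end (SD, n = 3). In B880 the order was the other way, since its 2 fragments without the left end had 118.8, 60.0 and 85.0 and its 7 whole-window fragments 23.2, 26.6 and 26.2. Fragments without the left end were above whole-window ones by that limit in 2 of 22 members, B880 and B634, where 3.04% of all sites were. Fragments without the right end exceeded whole-window ones in 0 of 22, where 2.30% of all did.

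**Figure D3:**
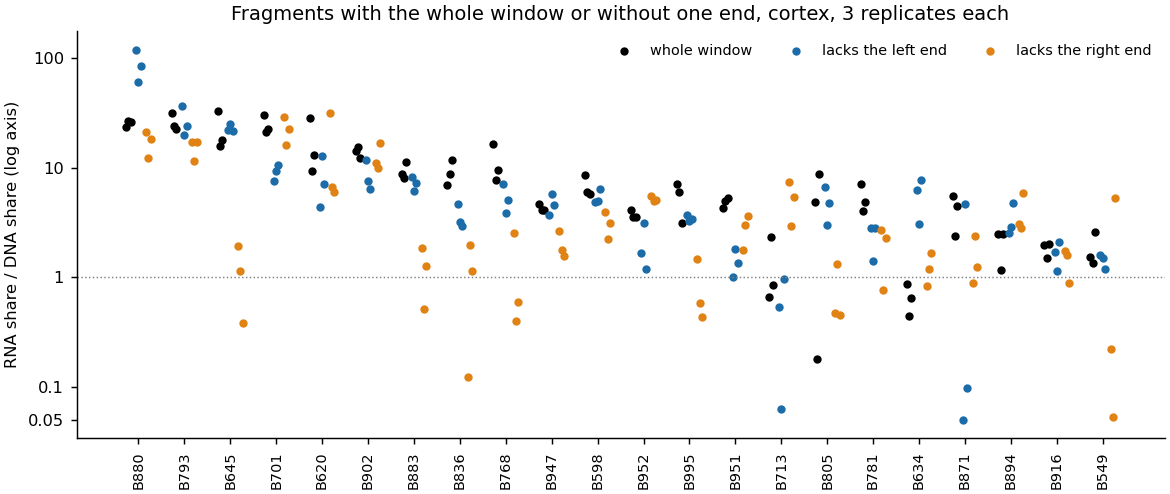
RNA/DNA share ratio in cortex (log axis) of fragments with the whole 300-base window (black), without its left end (blue) and without its right end (orange) in the 22 called members with at least 2 fragments of each kind; each colour has 1 point per replicate, and values under 0.05 are drawn at 0.05. In B645, B883, B836 and B768 the orange points lie below all others of the site, and in B880 the blue points lie highest.

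B885 lay close to other members. Windows B634 and B885 on chromosome 9 are 160 bp apart, and B813 lies 8520 bp to the left of B634. All 3 were called, and these were the only pairs of called members within 20000 bp of each other, among 8 pairs that close with both sites tested. B634 had share ratios of 3.14, 1.77 and 3.84 over 27 constructs (log2 1.85, SE 0.24, adjusted p = 1.04e-04 in edgeR's test).

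The call of B634 came with fragments that also reach into the window of B885. Of its 27 constructs, 12 overlapped that window, and their share ratio was 6.63, 3.54 and 8.44. The other 15 had 0.898, 0.609 and 1.11. No replicate of one group overlapped the other, and without the 12 fragments B634 had a log2 of 0.14 (SE 0.35, adjusted p = 0.926). Among the 4014 passing constructs of tested members, these 12 were the only ones seen to reach the window of another site. Only windows whose place the fragments fix could be checked, 359 of the 423 in the case of members. Without such fragments 36 members were called. This alternative was chosen after the data had been seen. B634 had been fitted as its own site in the counts above, where fragments were assigned as the authors' table assigns them.

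Within B885 the position of the left end went with activity. The 21 fragments that start at most 80 bases into the window, or before it, had share ratios of 20.9, 17.6 and 23.0, and the 12 that start further in had 5.13, 6.05 and 6.94. The limit of 80 bases was set after the values were seen, so it carries no test. Both fragments of B885 without any RNA were in the second group, on the minus strand.

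**Figure D4:**
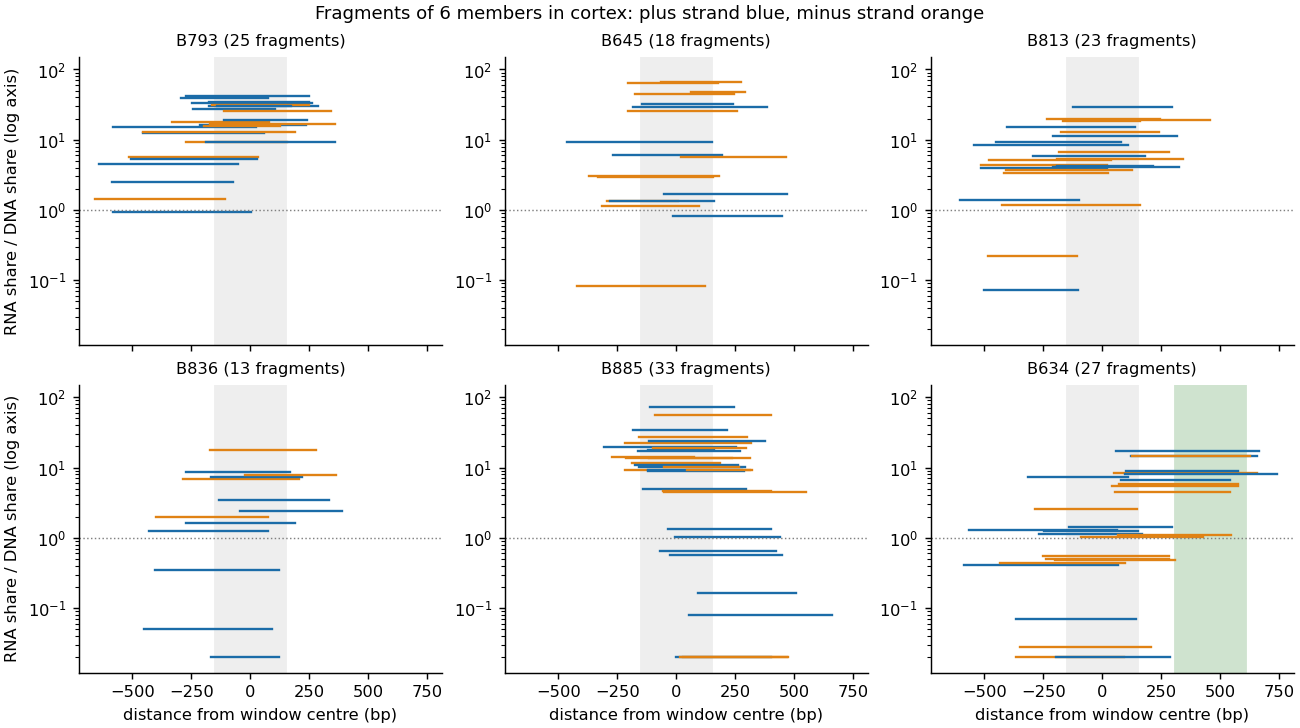
Position of each passing fragment of 6 members relative to the centre of its window (bp) against its mean RNA/DNA share ratio in cortex (log axis, values under 0.02 drawn at 0.02); blue fragments carry the plus strand and orange the minus strand, the grey band is the site's own window and the green band in the B634 panel is the window of B885. In B634 the fragments that reach the green band lie between 1.01 and 17.4, while most others lie near or under 1.

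Enhancers are known for acting in either orientation, and both strands could be compared within a site. The table gives a strand for each fragment, and whether plus means the direction of the reporter is not stated in the sources used here. With at least 2 constructs on each strand, 8 of 36 called members (22.2%) had strands more than 2-fold apart in the same direction in all 3 replicates, where 8.60% of 1931 sites of all classes had. Members not called had 19 of 187 (10.2%). Of all sites tested in cortex 2.99% were called, so the share over all classes mostly describes sites that were not called. Plus was higher in 4 of the 8 and minus in 4. B645 had 36.4, 22.4 and 21.2 on 11 minus constructs and 6.37, 4.86 and 7.56 on 7 plus constructs. B737 had 9.53, 6.997 and 7.20 on minus and 2.48, 3.46 and 2.57 on plus, and B883 had 9.25, 7.86 and 13.5 against 4.15, 3.23 and 2.53. The strands of these 3 sites did not overlap. B882 was the other site with minus higher, and B583, B634, B683 and B805 had plus higher. As given above, most RNA of B583 came from a single construct, and the call of B634 came with fragments that reach the window of B885. The fragments of the 2 strands also differ in position, and the part of either in the difference was not tested.

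In retina the same sites gave little RNA. Their constructs held 0.919% ± 0.0429 of the RNA on 11.4% of the DNA, a share ratio of 0.0807 ± 0.00438 (SD, n = 3). The H and L classes together had 0.0726 ± 0.00718 and the lower-numbered B sites 0.0978 ± 0.0132 (SD, n = 3), while the R class held 94.2% of the RNA. Single constructs weighed on these values: without the construct with most RNA of each site the ratios were 0.0521 ± 0.0125 for the members, 0.0404 ± 0.00930 for H and L and 0.0626 ± 0.00792 for the lower-numbered B sites (SD, n = 3). Members were above H and L in 2 of 3 replicates, with an exact two-sided sign permutation p = 0.5. They were below the lower-numbered B sites in 3 of 3 (exact p = 0.25, the smallest possible). RNA was found for 12.4% ± 2.07 of the member constructs in a retina replicate, against 65.6% ± 5.70 in cortex (SD, n = 3). The drop was shared by the other non-R classes, with 11.3% and 59.9% for H and L together and 11.8% and 64.004% for the lower-numbered B sites.

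No member was called higher in retina, where 8.81% of all sites were, 177 of these 179 being R sites. At an unadjusted p under 0.05 edgeR had 0 members higher and 24 of 228 lower. Over all 2031 sites it had 203 higher, 196 of them R sites, and 159 lower. Among H sites 44 of 489 were lower and among L sites 65 of 626. The 24 are therefore not read as particular to the members. DESeq2 called 3 members higher and 26 lower, and its counts over all sites are not given here. No member had a share ratio above 1 in all 3 replicates, where 5.96% of all sites did, all of them R sites. The highest member by fitted log2 was B969, at 0.240, 0.513 and 0.211 (log2 1.79, SE 2.14, adjusted p = 0.672). The error was large in retina, where the median member had 414.5 RNA counts over the 3 replicates, against 5951 in cortex. The source of this error was not tested. The median SE of a member's log2 was 3.03 in retina and 0.37 in cortex, so a member would have needed a very high ratio to be called. The log2 zero of the retina fit corresponded to share ratios of only 0.0806 to 0.0929.

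Replicates of retina did not place the members in a stable order. Across members, the correlation of log2 RNA/DNA between replicates ran from 0.07 to 0.17 in retina and from 0.59 to 0.65 in cortex (Pearson r over 228 and 241 sites, a description). RNA was present in all 3 replicates for 116 of 228 members (50.9%), against 56.4% of all sites, and absent from all 3 for 11 (4.82%), against 3.89%. The shares over all sites include the R class, with 80.3% present and 0.629% absent. H sites had 49.5% and 4.91% and L sites 46.3% and 5.27%, so the members were near these classes. One replicate held more than 90% of the summed share ratio in 65 of the 217 members with RNA. More than 50% of the RNA came from a single construct in 159 members, where the same was true of 46 in cortex. Shares of these counts over all sites are not given here, so they are not read as particular to the members.

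The most active cortex sites show the scatter. B662 had 0, 234 and 0 RNA counts in the 3 retina replicates on 2288, 1225 and 1576 DNA counts, all from 1 construct. B793 had 2116, 467 and 507 RNA counts and share ratios of 0.400, 0.117 and 0.0667. B701 had 0.385, 0.0413 and 0.115. All 3 stayed below 1 in each replicate, and their replicates differed by several fold. A ratio of 1 is far above the retina level of H and L together, which was 0.0647, 0.0743 and 0.0788 in replicates 1 to 3. B793 was above that level in replicates 1 and 2, and B701 in replicates 1 and 3. The 37 members called in cortex had a median retina log2 of -1.45, and the other 191 had -2.37.

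By edgeR's test, 1 member was called lower in retina, B962, where 0.148% of all sites were. This count depends on the processing: it was 26 with DESeq2, 18 with no replicate block, 35 without the construct with most RNA of each site and 112 with total library size. The counts of these alternatives over all sites are not given here, so they are not read as particular to the members. B962 had 72, 816 and 53 RNA counts on 23583, 12458 and 19653 DNA counts over 64 constructs, with share ratios of 0.00501, 0.0598 and 0.00275. The log2 was -3.32 (SE 1.09, adjusted p = 0.0273 in edgeR's test), and 67.7% of the RNA came from 1 construct. In cortex the site had 0.936, 0.397 and 0.961 and was not called. The retina call was lost whenever any 1 replicate was left out, and with no replicate block (log2 -2.01, adjusted p = 0.394).

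The tissues were compared by the interaction of tissue with RNA against DNA over all 12 libraries. Of 225 members tested, 25 (11.1%) were higher in cortex, where 5% of all 2000 sites were, and 0 were higher in retina, where 8.35% were. Of those 167 sites higher in retina 166 were R sites, and H and L had none either. The lower-numbered B sites gave 9 of 206 (4.37%), the H class 4.98% and the L class 6.33%. At an unadjusted p under 0.05 edgeR had 60 of the 225 members higher in cortex, against 294 of all 2000 sites. Among H sites it had 76 of 482 higher in cortex and among L sites 106 of 616. It had 0 members higher in retina, against 195 of all sites, 192 of them R sites. DESeq2 called 77 members higher in cortex and 1 higher in retina, and its counts over all sites are not given here. The count of 25 was not stable. It fell to 7, 7 and 6 without replicate 1, 2 or 3 of cortex, and rose to 31, 52 and 34 without replicate 1, 2 or 3 of retina.

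The cortex test and the tissue test share the cortex libraries, so the sites called by both are no separate support for either. Among the sites with RNA in all 3 retina replicates, B645 had a log2 of -4.93 (SE 0.75), B793 of -3.94 (SE 0.62), B813 of -3.75 (SE 0.56) and B701 of -3.50 (SE 0.69). Their adjusted p-values in edgeR's interaction test were 9.71e-04, 0.00127, 6.88e-04 and 0.00666. Share ratios fell between the tissues in the other non-R classes too, from 0.795 in cortex to 0.0726 in retina for H and L together. The fitted interaction was below 0 for an ordinary site as well. Its median log2 was -2.44 over H sites and -2.41 over L sites, against -2.68 over the members. The values of single sites are to be read against that level and not against 0. B880 had -6.84 (SE 1.08), on 11, 319 and 213 RNA counts in retina.

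The largest fitted differences belonged to sites with no retina RNA, where the fit gives no usable size. Folds are therefore given as bounds, with RNA/DNA taken relative to the pooled H and L sites of the same tissue and 3 counts over the group as the floor. These bounds cover counting error only, and not the scatter between constructs and replicates. Retina RNA was absent from 4.82% of members, 4.91% of H sites and 5.27% of L sites. The bound for B570 was 289.0-fold higher in cortex, with 2768, 2834 and 1951 RNA counts there and 0 in each retina replicate. For B683 it was 315.6-fold and for B542 172.8-fold. In cortex these 3 lay at 2.42, 4.94 and 2.74 times the H and L level, and B683 was called there while B570 and B542 were not.

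The other 5 without retina RNA were ordinary in cortex. B572, B908, B647, B573 and B705 lay at 0.906, 0.528, 0.584, 0.929 and 0.955 times the H and L level there. The lower bounds of their tissue difference were 152.3, 102.8, 67.6, 93.0 and 52.2-fold. They rested on 5 to 9 constructs each. For B572 and B705 limma on construct means turned the direction, with differences of 0.15 (adjusted p = 0.886) and 0.15 (adjusted p = 0.925). Of the 25 sites called, 11 were not called in cortex, and 7 of those 11 had no retina RNA. Sites without any retina RNA were found in every class. B620, with 2 retina counts in all, and B662 complete the 10 largest, with fitted log2 differences of -10.86 (SE 2.09) and -10.47 (SE 2.24). The retina RNA of B662 came from a single construct in a single replicate. These 2 fitted values are not to be read as folds either.

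**Figure D5:**
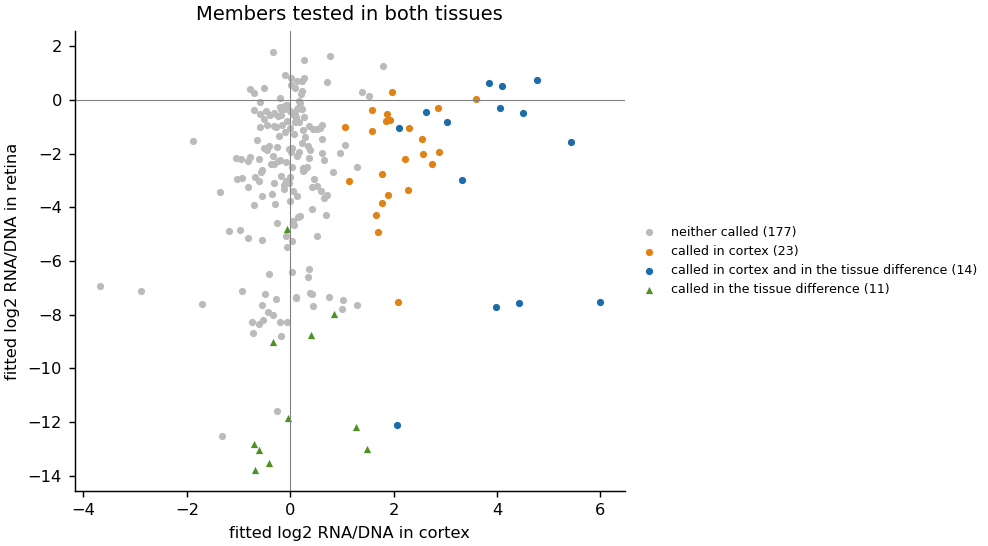
Fitted log2 RNA/DNA in cortex (horizontal) against retina (vertical) of the 225 members tested in both; colours mark members called in cortex (23), called in cortex and in the tissue difference (14), called in the tissue difference alone (11) and neither (177), and both calls use the same cortex libraries. The called cortex sites spread to the right up to 5.98 while their retina values stay at 0.75 or below, and the points below -10 in retina are mostly sites without RNA there, whose fitted value has no usable size.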

How the data were processed

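The samples were cortex, retina and 2 plasmid preparations, whose deposited construct tables were identical. Per the labels' protocols, captured fragments were linked to barcodes by paired-end reads of 250 bases, and barcodes were counted from single-end reads of 50 bases. Tools listed in the submitters' processing notes, without their roles, are bedtools 2.22.1, SAMtools 0.1.19, Bowtie2 2.1.0 and FastQC, with the build mm9. Every value here was computed from the raw counts of barcodes that the authors deposited. For passing constructs they also deposited each count as a fraction of its library, the ratio of the RNA to the DNA fraction, and log2 of that ratio plus 0.001. Recomputing this log2 from the counts gave the deposited values within 1e-06. Starts are given counted from 1.

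Counts were summed over the passing constructs of a site and tested with edgeR 4.0.16 in R 4.3.3 (robust quasi-likelihood, trimmed mean of M values scaling, adjusted p under 0.05, all classes in one fit). The replicate block rests on the labels, by which both nucleic acids of a replicate were extracted from one animal or one set of retinas. Deviations of paired libraries correlated between -0.043 and 0.019. Per-replicate log2 values used a prior count of 2. An SE is the fold change over the root of its F value. On simulated counts the fits returned the folds put in, and in retina such changes stayed uncalled. Alternatives were no block, 3 other scalings, DESeq2 1.42.0, limma 3.58.1 on construct means, other count and construct minimums, leaving out the top construct and leaving out each replicate. Tables and figures were made in Python 3.11.15 with pandas 2.3.3 and matplotlib 3.10.9.

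The sites and lists were chosen with earlier results of these data known. Named by rule were the 15 highest called cortex members, members called in retina, the 10 largest called tissue differences and the 3 members with most constructs or most DNA. Constructs were named as the most and least active of the 8 highest sites. Any other site named was chosen after its values were seen. Neighbouring genes and sequence motifs were not analysed here.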

Additional observations from a re-analysis of the deposited data

Results flagged for a closer look

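The retina and cortex effects of 25 members differed in edgeR's interaction test at an adjusted p under 0.05, all with more activity in cortex. For 8 without retina RNA the value is the lower bound, for counting error only, of the fold relative to the H and L sites, with 3 counts over the group as the floor: B570 289.0, B683 315.6, B542 172.8, B572 152.3, B908 102.8, B647 67.6, B573 93.0 and B705 52.2. For the others it is the fitted log2 of retina minus cortex. This was -10.86 for B620, -10.47 for B662, -10.38 for B922, -8.49 for B945, -8.31 for B844 and -8.13 for B915, all with at most 234 retina RNA counts and not to be read as folds. It was -6.84 for B880, -6.11 for B883, -4.93 for B645, -4.63 for B875, -4.27 for B885 and -3.94 for B793. The smallest were -3.75 for B813, -3.50 for B701, -3.14 for B902, -2.99 for B947 and -2.99 for B951. The median of this log2 was -2.44 over all H sites tested and -2.41 over all L sites. B875 was not called in cortex (0.923 times the H and L level there) and had 30, 47 and 13 retina counts on 31 constructs.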

How the results depend on the processing

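The count of members called higher in cortex ran from 29 to 47 over all alternatives, from 29 to 41 with a replicate left out, and was 38 with no replicate block. Members called lower in cortex were 1 with total library size and 2 with DESeq2. Members called higher in retina were 3 with DESeq2, 3 with limma, 1 without the construct with most RNA, and 0 to 1 with a replicate left out. Members called lower in retina were 18 with no replicate block, 112 with total library size, 0 with H and L counts as library size, 26 with DESeq2, 4 with limma, 35 without the construct with most RNA, and 0 with each replicate left out. Members higher in cortex than retina were 40 with no replicate block, 140 with total library size, 77 with DESeq2, 41 with at least 3 constructs, 12 with at least 8, and 6 to 52 with a replicate left out. Members higher in retina than cortex were 1 with DESeq2 and 2 with limma. The retina RNA/DNA share ratio was 0.0521 without the construct with most RNA of each site. The limma difference of B572 was 0.15 (adjusted p = 0.886) and that of B705 0.15 (adjusted p = 0.925), opposite in sign to edgeR. Counts of these alternatives over all sites are not given here, so none is set against a share of all sites. The cause of the changes between alternatives was not tested. The low RNA of these sites in retina limits every statement on single members there.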
